A study of Mus musculus with 4 samples.

Results

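Genes that mark or drive the primitive streak and the mesendoderm were read on every array, 10 in all: T, Eomes, Mixl1, Mesp1, Gsc, Evx1, Tbx6, Fgf8, Cer1 and Lhx1. They were taken by name, as all probes whose gene name in the scanner files is one of these 10, which gave 15 probes of 60 bases with 1 spot each, for 10 of the 36039 genes on the array. Eomes, Tbx6 and Lhx1 had 2 probes, Fgf8 had 3, and the other 6 genes had 1. Transcripts of the mouse embryonic stem (ES) cell line E14Tg2A, of strain 129/Ola, were measured on 4 one-colour Agilent arrays with 1 array in each group. The groups were untreated ES cells at day 0 in serum with LIF, the cytokine that keeps them undifferentiated; epiblast-like aggregates (ELA), the same line after 2 days as floating aggregates in a defined minimal medium with no LIF; ELA given 50 nM 5-azacytidine (AZA), which blocks DNA methyltransferases; and ELA given 100 µM 5-carboxy-8-hydroxyquinoline (CHQ), which blocks histone lysine demethylases. Each array carried RNA pooled from 3 sets of experiments, so no replicate array exists, the spread between cultures is unknown and no p-value was computed. In bulk RNA of this kind, fewer cells of a type and less RNA per cell cannot be told apart.

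In the mouse embryo the primitive streak forms at the posterior edge of the epiblast, where Nodal, Wnt and Bmp signals switch on T-box and homeobox genes and epiblast cells leave the epithelium to become mesoderm and definitive endoderm. T (Brachyury) is the classical marker of the whole streak, Eomes acts early in the streak toward endoderm and cardiac mesoderm, and Tbx6 acts later in paraxial mesoderm. ES cells that leave the ground state pass through an epiblast-like state in which these genes are poised, and the protocol used here leads on to neural cells, not to mesendoderm.

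Detection was examined first, because several of these genes stood near the background. A gene was counted as detected on an array where the scanner software marked its brightest probe as well above background. In ES cells 7 of the 10 genes were detected, beside 65.5% of all genes on the array. In ELA, the untreated day 2 sample, 6 of 10 were detected, beside 60.5% of all genes: T, Eomes, Gsc, Tbx6, Fgf8 and Lhx1. With AZA 8 of 10 were detected (73.1% of all genes), and with CHQ 9 of 10 (73.5%). Each count lay near the share of all genes on its array, so the counts set the members apart little. Cer1, a secreted inhibitor of Nodal, Bmp and Wnt made by anterior endoderm, was detected on no array. Mixl1, a homeobox gene of the streak induced by Nodal, was detected with CHQ alone, and Mesp1, the bHLH factor of the earliest cardiac mesoderm, with AZA and CHQ (and in ES too by 2 looser rules, the software's positive-and-significant mark and the 99th percentile of negative controls). Evx1, a homeobox gene of the posterior streak, was detected on every array but ELA.

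The background differed between arrays in a way that touches these counts. ES and ELA lay on 1 slide and AZA and CHQ on the other, and the local background around the spots had a median of 59 and 77 units on the first pair and of 14 and 13 on the second. A scanned intensity of 67.5 for Mesp1 in ELA was below its local background of 85, whereas 47 for T with CHQ stood over a local background of 13 and was marked as well above it. Slide and treatment therefore cannot be told apart in any value that sets AZA or CHQ against ELA, while ELA against ES and CHQ against AZA were read within a slide. Probes spotted more than once (432 on the ES array) varied within an array with an SD of 0.15 on the log2 scale, pooled over the arrays, which makes the SD of a difference between 2 spots 0.22. This covers spotting and reading only.

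**Figure D1:**
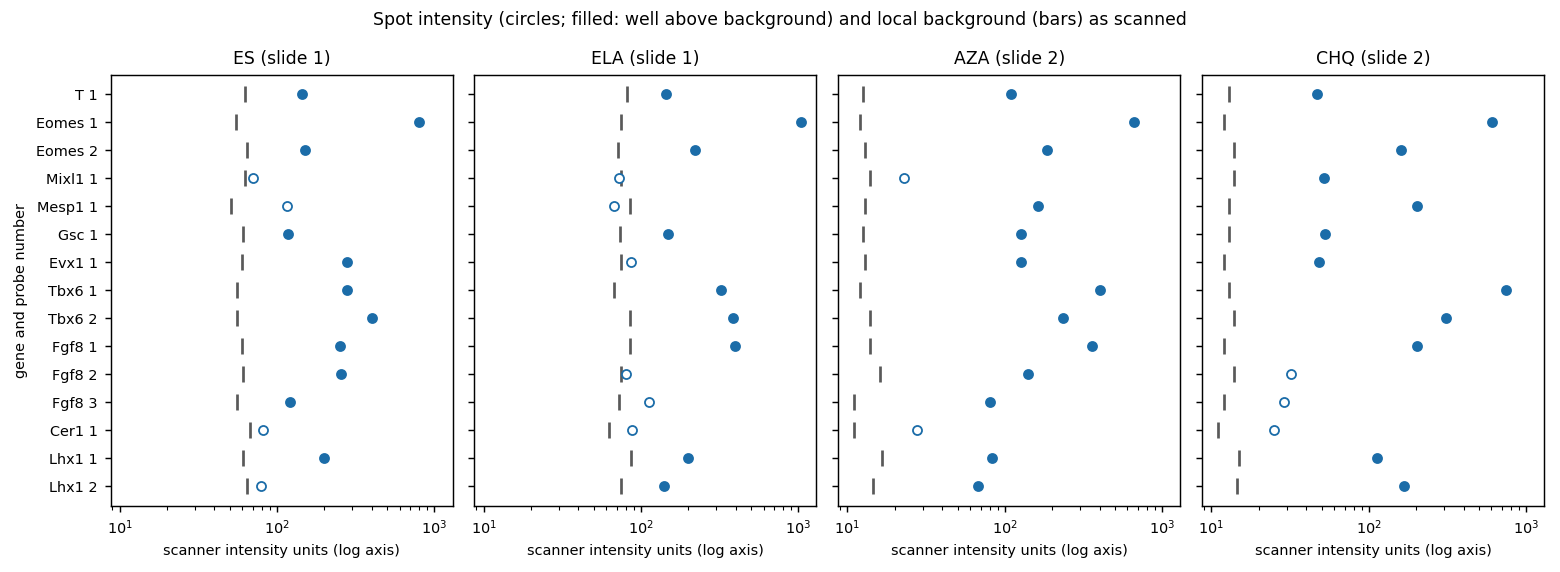
Scanned median spot intensity (circles, intensity units on a log axis) and local background (bars) of each of the 15 probes on the 4 arrays, filled where the spot was well above background. The bars lie near 59 (ES) and 77 (ELA) units on slide 1 and near 14 (AZA) and 13 (CHQ) on slide 2, and the Cer1 circles are open on all 4.

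The T-box genes are given first. Probe 1 of Eomes (mm9 chr9:118394425-118394484, plus strand) had normalised log2 intensities of 9.59 (ES), 10.16 (ELA), 9.43 (AZA) and 9.24 (CHQ). ELA was thus the highest of the 4 arrays, by 0.57 over ES (0.03 when the arrays were scaled to spike-in probes), and both treated arrays lay lowest. AZA minus ELA was -0.97 and CHQ minus ELA -1.30 under that scaling. Probe 2 of Eomes (chr9:118395189-118395248) had 7.10, 7.85, 7.86 and 7.64 in the same order. Both probes put ELA over ES, by 0.57 and 0.75, but for AZA minus ELA they differed, with -0.73 at probe 1 and 0.01 at probe 2, and for CHQ minus ELA they gave -0.92 and -0.21.

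Tbx6 was read by 2 neighbouring probes, and their orders of the arrays differed. At probe 1 (mm9 chr7:133929000-133929059, plus strand) ES read 8.08, ELA 8.48, AZA 8.80 and CHQ 9.52, so that CHQ was highest. At probe 2 (chr7:133928828-133928887) it was 8.60, 8.68, 8.12 and 8.39, and ELA was highest. CHQ minus ELA was therefore 1.05 at probe 1 and -0.29 at probe 2, although both probes were well above background on all 4 arrays. The value at probe 1 passed the size of 1 by little. It was 0.38 with the mean over both probes, 0.62 under spike-in scaling and 0.93 with the mean rather than the median pixel of each spot, a setting added after the data were seen.

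T spanned a range of 0.76 over the arrays. Its probe (mm9 chr17:8635302-8635361, plus strand) read 7.03 (ES), 7.03 (ELA), 7.31 (AZA) and 6.55 (CHQ), well above background on each array. ES and ELA differed by -0.01, within the error of a spot, AZA minus ELA was 0.28 (-0.36 under spike-in scaling), and CHQ minus ELA was -0.47 (-1.36 under spike-in and -1.90 under 75th percentile scaling). The widest gap was CHQ minus AZA, within the second slide, at -0.76, past the error of a spot difference. It was negative in all 8 ways of processing, from -0.76 to -2.25. With 1 probe for T, the mean over probes only repeats the main value.

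**Figure D2:**
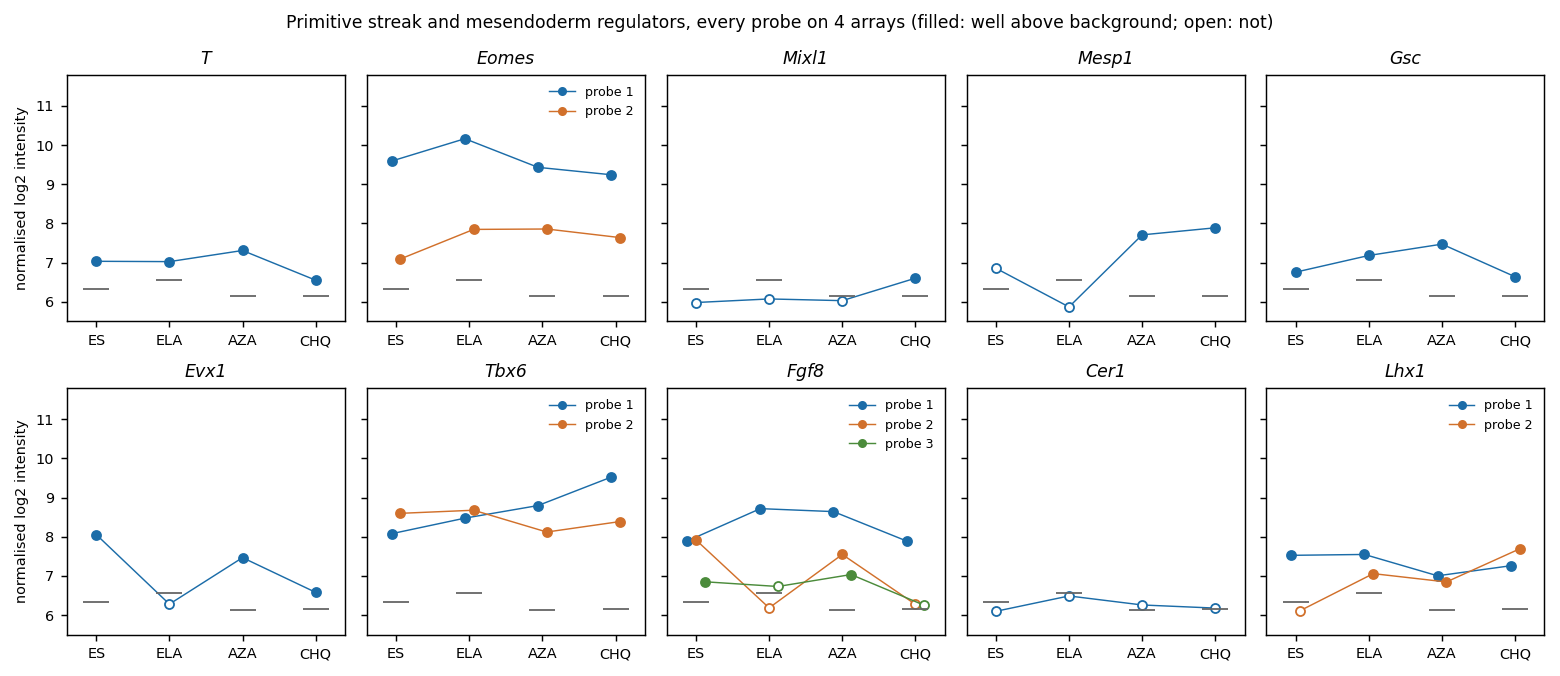
Normalised log2 intensity (vertical axis) of every probe of the 10 genes on the ES, ELA, AZA and CHQ arrays, 1 array each; circles are filled where the spot was well above background, and grey dashes mark the 99th percentile of the negative control spots of that array. Eomes is highest in ELA at probe 1 (10.16), the 2 Tbx6 probes part at CHQ (9.52 and 8.39), and Mesp1 lies at 5.87 in ELA and at 7.71 and 7.89 with AZA and CHQ.

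Mesp1 was detected on the treated arrays and not on the untreated ones. Its probe (mm9 chr7:86937140-86937199, minus strand) had 6.86 in ES and 5.87 in ELA, neither well above background, and 7.71 with AZA and 7.89 with CHQ, both well above it. Both treated arrays thus read above both untreated ones, but under spike-in scaling they were no longer above ES. Set against the lowest ELA signal marked as well above background (6.03), Mesp1 was at least 3.21-fold higher with AZA and at least 3.63-fold higher with CHQ than in ELA. That floor lies below the median of the ELA negative controls (6.10), and against their 99th percentile (6.56), a floor added after the data were seen, the bounds were 2.22-fold and 2.52-fold. The measured differences were 1.84 and 2.02 (log2), and 1.26 and 1.32 under spike-in scaling, so of these bounds only the 2.22-fold for AZA is met under that scaling. The mean level of each pair of arrays was below the 7.5 that the call rule given below asks for, so neither difference was called. AZA and CHQ differed by 0.18, less than the error of a spot difference.

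Evx1 ordered the arrays otherwise. Its probe (mm9 chr6:52268298-52268357, plus strand) had log2 intensities of 8.06 (ES), 6.28 (ELA), 7.47 (AZA) and 6.58 (CHQ). ES was highest and ELA, not well above background, was lowest. Evx1 was at least 3.42-fold higher in ES than in ELA and at least 2.28-fold higher with AZA than in ELA. CHQ minus AZA was -0.89 on the same slide (-1.47 without an offset and -2.30 under 75th percentile scaling). Under spike-in scaling the difference of AZA minus ELA fell from 1.19 to 0.44 (log2), so that the bound of 2.28-fold holds for quantile-normalised values and not for that scaling. The same difference was 2.19 without an offset and 3.32 under 75th percentile scaling. With the 99th percentile of negative controls as the floor, the bounds over ELA were 2.83-fold for ES and 1.88-fold for AZA, the latter also not met under spike-in scaling. The bound for CHQ over ELA was 1.23-fold, and CHQ minus ELA turned from 0.30 to -0.69 under spike-in scaling.

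Sequences before the start of transcription are shown for these genes, Mesp1 and Evx1 because their quantile-normalised values were higher with the DNA methyltransferase inhibitor than in ELA by more than 1 (log2), and Eomes and Tbx6 for contrast. AZA acts on the methylation of CpG, so each CpG is in capitals. All are the 250 bases upstream of the annotated start, 5′ to 3′ in the direction of the gene, from RefSeq on build GRCm38.p6. No methylation was measured here.
Mesp1 (chr7:79793591-79793840, minus strand): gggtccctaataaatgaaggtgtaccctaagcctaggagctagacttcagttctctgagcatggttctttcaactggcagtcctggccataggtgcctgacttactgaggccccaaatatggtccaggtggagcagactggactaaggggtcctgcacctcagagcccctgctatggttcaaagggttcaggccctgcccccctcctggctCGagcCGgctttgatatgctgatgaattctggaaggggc
Evx1 (chr6:52313248-52313497, plus strand): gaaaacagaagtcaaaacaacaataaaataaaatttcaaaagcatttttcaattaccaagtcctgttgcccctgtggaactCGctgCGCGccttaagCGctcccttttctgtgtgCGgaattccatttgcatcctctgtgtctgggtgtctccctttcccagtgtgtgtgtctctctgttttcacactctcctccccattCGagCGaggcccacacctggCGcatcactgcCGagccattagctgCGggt
Eomes (chr9:118477939-118478188, plus strand): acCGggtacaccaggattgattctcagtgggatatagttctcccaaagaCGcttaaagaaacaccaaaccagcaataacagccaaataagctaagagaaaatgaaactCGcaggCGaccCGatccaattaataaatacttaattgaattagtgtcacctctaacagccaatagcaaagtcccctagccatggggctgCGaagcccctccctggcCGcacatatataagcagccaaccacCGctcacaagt
Tbx6 (chr7:126781233-126781482, plus strand): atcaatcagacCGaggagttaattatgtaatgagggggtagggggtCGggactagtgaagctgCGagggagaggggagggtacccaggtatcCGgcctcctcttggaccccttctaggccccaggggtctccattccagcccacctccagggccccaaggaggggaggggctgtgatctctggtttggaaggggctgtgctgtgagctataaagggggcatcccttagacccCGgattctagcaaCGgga
Mesp1 has 2 CpG in this window, Evx1 10, Eomes 8 and Tbx6 6. Across 32851 promoters of the table the median was 6, with quartiles of 2 and 16. Of the other genes, Cer1 has 5, T 14, Gsc 22 and Lhx1 26, so the pair higher with AZA lies at both the low end and the middle of the 8 genes that have an entry. Mixl1 and Fgf8 were not matched. The letters GGTGTGA, the core bound by T-box factors, were searched on both strands of the same windows and occur in 0 of the 8 genes and in 3.33% of all promoters. The letters CTTTGAT, which TCF and LEF factors bind in Wnt signalling, occur in 1 of the 8, in Mesp1 close to the start, and in 3.21% of all promoters.

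Gsc and Mixl1 are homeobox genes as well. Gsc, the organiser gene of the anterior streak, read 6.76 (ES), 7.18 (ELA), 7.47 (AZA) and 6.64 (CHQ) at its probe (mm9 chr12:105709426-105709485, minus strand), well above background throughout. AZA was highest and CHQ lowest, with CHQ minus AZA at -0.83 (-1.36 without an offset and -1.78 under 75th percentile scaling) and AZA minus ELA at 0.29, which became -0.32 under spike-in scaling. The Mixl1 probe (mm9 chr1:182624310-182624369, minus strand) read 5.98, 6.07 and 6.03 in ES, ELA and AZA, none well above background, and 6.60 with CHQ, at least 1.44-fold over ELA and at least 1.39-fold over AZA. The bound over ELA was 1.03-fold with the 99th percentile of negative controls as the floor. CHQ minus AZA was 0.57, with 3.26 under 75th percentile scaling and 0.39 under spike-in scaling, where the bound over AZA is not met. CHQ minus ELA was 0.53 as measured, turned to -0.42 under spike-in scaling and was 1.47 under 75th percentile scaling, so its direction depends on the scaling.

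Lhx1, a LIM homeobox gene of the node and anterior mesendoderm, had 1 probe in coding sequence and 1 farther downstream. Probe 1 (mm9 chr11:84335442-84335594, minus strand) spans 153 genomic bases, so that 93 bases that are not in the probe, an intron, lie inside it. It is shown to identify which stretch of the transcript the value refers to, with its CpG in capitals.
Lhx1 probe 1: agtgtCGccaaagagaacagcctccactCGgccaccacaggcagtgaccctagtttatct
It read 7.53 (ES), 7.55 (ELA), 7.004 (AZA) and 7.26 (CHQ), well above background on all 4. Probe 2 (chr11:84331888-84331947) read 6.11, 7.06, 6.85 and 7.69, with ES not well above background. ELA minus ES was 0.02 at probe 1 (-0.38 under spike-in scaling), whereas probe 2 put ELA at least 1.78-fold over ES. CHQ minus ELA was -0.29 at probe 1 (-0.99 under spike-in scaling) and 0.63 at probe 2. With the mean over both probes ELA minus ES was 0.48 and CHQ minus ELA 0.17.

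Fgf8, the growth factor that streak cells need in order to migrate away, was read by 3 probes that did not order the arrays alike. Probe 3 lies in coding sequence (mm9 chr19:45811668-45811727, minus strand) and is shown for the same reason.
Fgf8 probe 3: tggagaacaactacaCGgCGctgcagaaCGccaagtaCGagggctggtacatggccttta
At probe 1 (chr19:45811355-45811414), downstream of it, the log2 intensity was 7.89 (ES), 8.72 (ELA), 8.64 (AZA) and 7.89 (CHQ), well above background on all 4 arrays. Probe 2 (chr19:45816855-45816914), near the other end of the gene, read 7.92, 6.19, 7.55 and 6.28, and probe 3 read 6.85, 6.73, 7.04 and 6.25. Probes 2 and 3 were well above background in ES and with AZA alone. ELA minus ES was 0.83 at probe 1 (0.29 under spike-in scaling), whereas at probe 2 ES was at least 3.33-fold over ELA (2.57-fold with the 99th percentile floor). CHQ minus AZA, within 1 slide, had the same sign at all 3 probes, from -0.75 to -1.27, and probes 2 and 3 gave bounds of at least 2.42-fold and 1.72-fold lower with CHQ. Cer1 (mm9 chr4:82527655-82527714, minus strand) stayed between 6.10 and 6.49 and was well above background on none. With AZA (6.26) and CHQ (6.18) it lay just over the 99th percentile of the negative controls (6.14 and 6.15), the looser rule, so no difference is read from it.

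The size rule was then applied. A gene was tested where its mean log2 over both arrays was at least 7.5 and 1 or both of its spots stood well above background, and called changed where the difference was at least 1. In ELA against ES, 4 of the 10 genes passed the filter (Eomes, Tbx6, Fgf8, Lhx1) and 0 were called, beside 9.93% of 18926 genes tested. The median difference of all 10, those at background included, was 0.24, beside a median of -0.0044 over all 36039 genes, the filter left aside in both. With AZA against ELA, 3 passed (Eomes, Tbx6, Fgf8) and 0 were called, beside 25.5% of 19148 genes, with a median over the 10 of 0.12 beside -0.04 over all genes. With CHQ against ELA, 3 passed and 1, Tbx6, was called higher, beside 26.7% of 19155 genes, with a median of -0.30 beside -0.05. CHQ against AZA had 4 tested (Eomes, Mesp1, Tbx6, Fgf8) and 0 called, beside 10.2% of 19186, with a median of -0.13 beside -0.01. Over the members that passed the filter alone the medians were 0.48, -0.08, -0.83 and -0.00 in the same order of comparisons, beside -0.00, -0.09, -0.10 and -0.03 over all genes that passed, so the sign for AZA rests on members that did not pass. With 3 or 4 genes tested, counts of 0 and 1 cannot be set apart from these shares. The AZA and CHQ comparisons share the ELA array, so a value that is off there moves both.

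**Figure D3:**
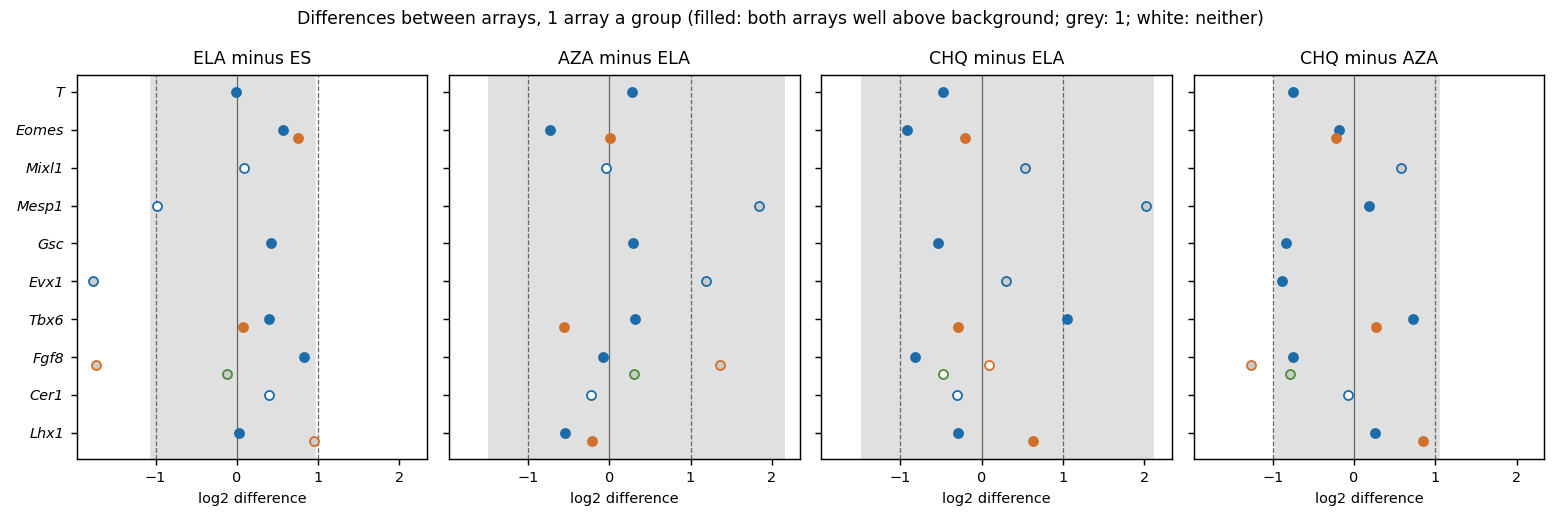
Log2 difference (horizontal axis) of every probe in the 4 comparisons, 1 array against 1; the grey band is the range from the 5th to the 95th percentile of all genes tested and dashed lines mark a size of 1. Outside the band lie the ELA minus ES values of Evx1 (-1.78) and Fgf8 probe 2 (-1.73) and the CHQ minus AZA value of Fgf8 probe 2 (-1.27), each with 1 of its 2 arrays not well above background.

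The order of the arrays was compared with the error of a spot for the brightest probe of each gene. Eomes separated ELA from ES by 0.57, while ES and AZA lay 0.16 apart and AZA and CHQ 0.19, both within 0.22. For Tbx6 all 3 gaps between neighbouring arrays exceeded 0.22 at probe 1. The gap between ES and ELA was 0.01 for T and 0.02 for Lhx1, and that between ELA and AZA 0.08 for Fgf8. Among the 13339 genes with an ordinary symbol that were well above background on all 4 arrays, the closest in shape, by the Euclidean distance of their centred log2 values over 4 arrays, were Sfrp5 (0.024) and Qdpr (0.043) for T, Men1 (0.035) and Ncan (0.042) for Eomes, and Trim45 (0.022) and Wdr4 (0.037) for Lhx1. The closest to Tbx6 were Helz2 (0.063) and Tnk1 (0.080), to Fgf8 Eef2k (0.072) and Smtn (0.093), and to Gsc Tmem256 (0.099) and Ly6e (0.11).

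Related genes were counted by the same rule from lists, which share a few members such as Tbx3. Over all genes tested the share called, in either direction, was 9.93% in ELA minus ES and 25.5% in AZA minus ELA. It was 26.7% in CHQ minus ELA and 10.2% in CHQ minus AZA. Genes past the 3 largest of a list were named after their values were seen, and a fold marked "at least" is a bound against an ELA spot not well above background. Where such a gene was called, it had passed the filter through its other array alone. Its call could go 1 way only and does not bear on the direction of its list. All 128 calls in these and the marker lists, each gene counted once per comparison, kept their sign under 75th percentile and spike-in scaling and in the deposited table. Of the 7 streak-inducing signals, 5 could be tested in ELA against ES and 3 were called, all lower: Nodal by -3.61, its relative Gdf3 by -1.98 and Bmp4 by -1.15. Tdgf1, the co-receptor of Nodal, was not called at its brightest probe (-0.83, then 0.65 with AZA and 0.88 with CHQ against ELA), while another of its 3 probes gave -4.47, and probes other than the brightest reached 3.68 and 4.24 with AZA and CHQ. Nodal, the ligand that starts the streak, read 12.98 (ES), 9.38 (ELA), 14.14 (AZA) and 13.85 (CHQ), so that ELA stood alone at the bottom. With AZA against ELA 3 of 5 were called higher (Nodal 4.77, Gdf3 2.34 with 0.69 at another probe, Bmp4 1.45) and 1 lower, Foxh1 (-1.19). With CHQ against ELA 3 of 6 were called higher (Nodal 4.47, Gdf3 1.75 with 0.81 at another probe, and Wnt3, at least 11.0-fold) and 0 lower. Wnt3 passed the filter through its CHQ spot alone (6.59 in ELA and 10.05 with CHQ), so it could only be called higher. Between CHQ and AZA, the difference was 2.16 for Wnt3 and -2.23 for Bmp4. Over all 7 signals the median difference was -1.11 in ELA minus ES, and against ELA 1.30 with AZA and 0.88 with CHQ.

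Direct targets and feedback inhibitors of Nodal and Wnt were read next. In ELA against ES 3 of 6 tested were called lower, Lefty1 by -3.53, Lefty2 by -2.36, and Sp5, which was at least 14.4-fold higher in ES, while Lef1 was higher in ELA by 1.21. With AZA against ELA 3 of 6 were called higher and 0 lower, namely Lefty1 (6.12) and Lefty2 (5.79), both inhibitors of Nodal, and Sp5 (at least 3.63-fold). With CHQ 4 of 6 were higher and 0 lower, namely Lefty1 (3.66), Lefty2 (2.91), Sp5 (at least 4.31-fold) and Lef1 (1.83). Sp5, not well above background in ELA (6.61), passed the filter through its other array alone, so each of these calls of it was fixed in direction. Within the second slide 2 of 6 were called lower with CHQ than with AZA, Lefty1 by -2.46 and Lefty2 by -2.88, and 2 higher, Lef1 by 2.01 and Nkd1 by 1.13 (0.24 at another probe). Over all 7 genes the median difference was 0.22 in ELA minus ES, and against ELA 0.40 with AZA and 1.83 with CHQ. For the 10 regulators these medians were 0.24, 0.12 and -0.30.

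Other genes of the streak, tail bud and mesoderm came next. Of 21, 10 could be tested in ELA against ES, with 2 higher (Snai1 1.62, Dll1 1.57) and 3 lower (Tbx3 -2.21, Fgf4 -1.25, Cdx1 -1.09). With AZA 5 of 9 were higher and 0 lower (Tbx3 5.02, Wnt8a 1.99, Mesp2 1.72, Fgf4 1.69, Dll1 1.04), beside 25.5% of all genes tested called in either direction. With CHQ 5 of 9 were higher (Tbx3 3.49, Fgf4 2.36, Dll1 2.24, Mesp2 1.73, Wnt8a 1.41) and 2 lower (Snai1 -1.08, and Kdr -1.07 with 0.81 at another probe), beside 26.7% of all genes tested. Over all 21 genes the median difference was -0.01 in ELA minus ES, and against ELA 0.06 with AZA and 0.16 with CHQ. Tbx3 and Fgf4 are also known as genes of ES cells. Mesp2, the neighbour and close relative of Mesp1, read 7.45 in ELA and 9.18 with both inhibitors.

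Of the 13 genes of definitive endoderm, node and organiser, 1 of 6 tested was higher in ELA than in ES, Foxa2 (1.78, and 0.66 at another probe). With AZA Hhex was higher (1.55) and Foxa2 lower (-1.84, and -0.71 at another probe) among 7 tested. With CHQ 3 of 9 were higher, Gata6 (at least 8.62-fold), Sox17 (at least 6.64-fold, with a log2 difference of 1.33 at another probe) and Hhex (2.02), and Foxa2 was lower (-1.08, and -0.43 at another probe). Gata6 (6.76 in ELA) and Sox17 (6.72) passed the filter through their CHQ spots alone and could only be called higher. Over all 13 genes the median difference was 0.27 in ELA minus ES, and against ELA -0.10 with AZA and -0.05 with CHQ. Among 14 other T-box genes, Tbx3 was the 1 called in ELA against ES, 4 of 7 were higher with AZA (Tbx3, Tbx4 3.46, Tbx1 1.53, Mga 1.29) and 5 of 9 with CHQ (Tbx4 4.75, Tbx3, Tbx2 at least 3.91-fold, Mga 1.24, Tbx1 1.19), with 0 lower in either. Tbx2, not well above background in ELA, could only be called higher with CHQ. Over all 14 the median difference was 0.05 in ELA minus ES, and against ELA 0.21 with AZA and 0.50 with CHQ.

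**Figure D4:**
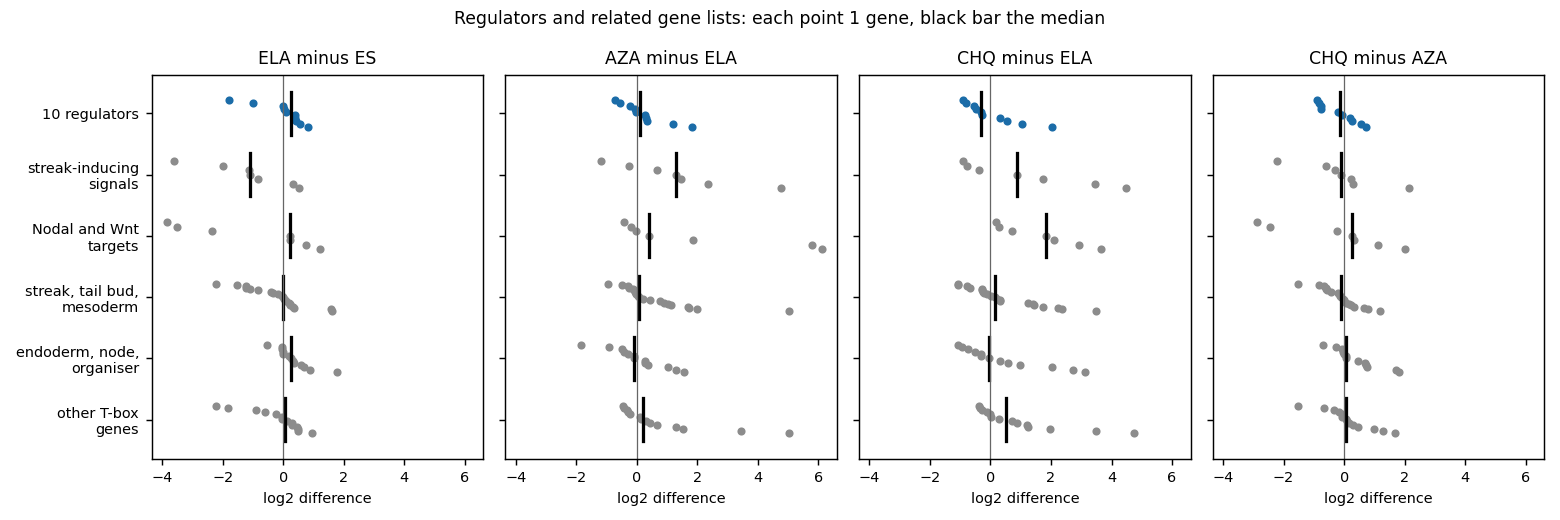
Log2 difference (horizontal axis) of each gene, 1 point a gene, for the 10 regulators and 5 related lists in the 4 comparisons; black bars are medians. The regulators lie between -1.78 and 2.02, while single genes of the other lists reach 6.12 with AZA (Lefty1) and 4.75 with CHQ (Tbx4).

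Markers of cell states were read beside these values. The 8 ground state ES markers had a median ELA minus ES difference of -3.34 with all 8 called lower (Nanog by -2.46, with 0.25 at another probe), and the 6 primed epiblast markers one of 0.96 with 3 called higher, led by Fgf5 (2.88), as the labels ES and ELA state. With AZA 8 of 8 ground state markers were higher than in ELA and 4 of 6 primed markers lower, and with CHQ 7 of 8 and 4 of 6. Prdm14, counted in each of these ground state tallies, was not well above background in ELA (6.70), so its calls could go 1 way only. Another probe of Nanog gave -1.58 in AZA minus ELA, against 2.84 at the probe counted. Nanog was also the ground state marker not called with CHQ, at -0.02 in CHQ minus ELA and -1.02 at the other probe. Of 10 markers of visceral and primitive endoderm, 6, 5, 9 and 8 were detected in ES, ELA, AZA and CHQ, and Ttr on no array. Of all genes, 65.5%, 60.5%, 73.1% and 73.5% were detected on these arrays. The summed levels of the 10 markers were 1875, 1903, 2683 and 3382 (linear normalised intensity). The higher sum with AZA than in ELA rests mainly on Cubn (2.02, and 0.04 at another probe). In CHQ minus ELA this list had 2 genes called higher, Gata6 and Cubn (1.69, and 0.16 at another probe), and 2 lower, Amn (-1.33) and Dab2 (-1.37). Gata6, not well above background in ELA, could only be called higher. Afp, not well above background in ELA and at 8.56 with CHQ, was at least 5.59-fold higher (3.99-fold with the 99th percentile floor) but missed the mean level for a test. Trophoblast markers were detected for 7, 4, 6 and 7 of 8, with sums of 127607, 90074, 45973 and 43506. The keratins Krt8 and Krt18 were called lower with both inhibitors than in ELA, Krt18 by -1.49 with AZA and -2.23 with CHQ. Tfap2c (2.10 and 3.45) and Ascl2 (2.60 and 2.30) were called higher. The sums follow the bright keratins, whereas the median difference of the 8 markers from ELA was 0.51 with AZA and 0.78 with CHQ. Early neural markers were detected for 5, 5, 4 and 4 of 5, with sums of 7683, 14953, 4599 and 5630. Nes was the brightest on each array (13.55 in ELA), so the sums follow it. In ELA minus ES 2 of 5 were called higher, Hes5 (2.18) and Zfp521 (1.74, and 0.69 at another probe), and 0 lower. With each inhibitor 3 of 4 tested were called lower than in ELA (Hes5, Zfp521, Nes) and 0 higher. Zfp521, not well above background with AZA, could only be called lower there. Its other probe gave -0.66 with AZA and -0.48 with CHQ. The part of these other cells in the values of the 10 genes was not tested.

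**Figure D5:**
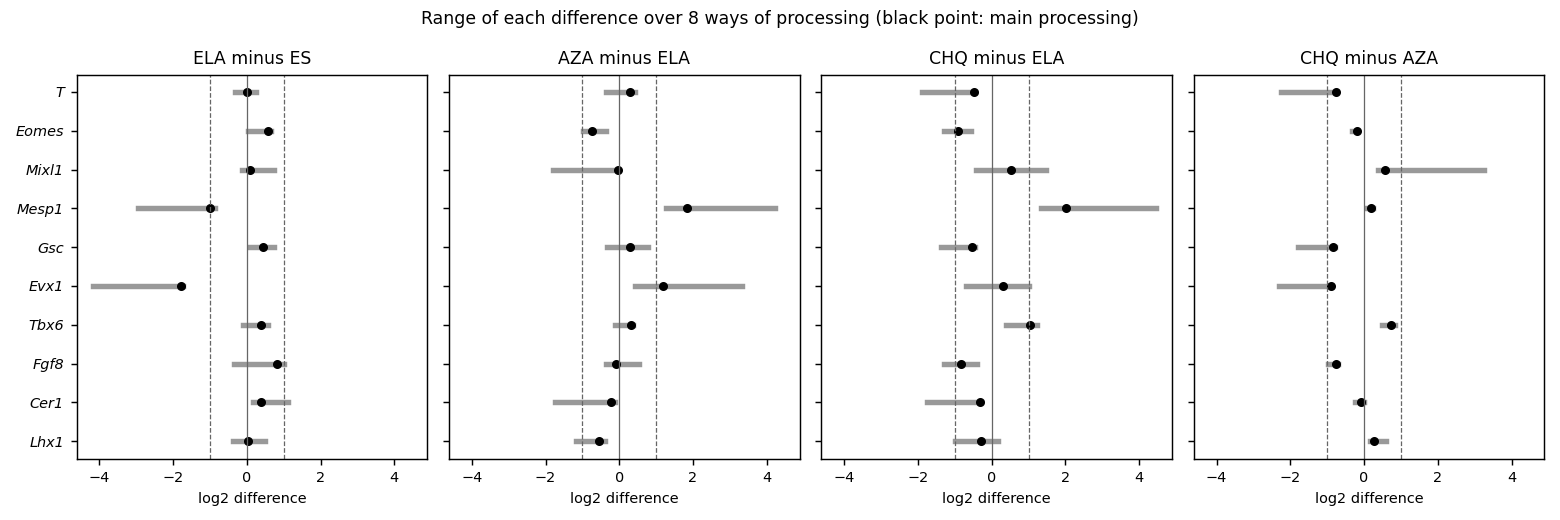
Log2 difference (horizontal axis) of the 10 genes in the 4 comparisons under the main processing (black points) and its range over 8 ways of processing (grey bars); dashed lines mark a size of 1. Mesp1 with AZA ranges from 1.26 to 4.23 and Evx1 in ELA minus ES from -4.18 to -1.73, while T in ELA minus ES ranges from -0.32 to 0.25.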

How the data were processed

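RNA of ES, ELA, AZA-treated and CHQ-treated ELA cells was hybridised to 1 one-colour Agilent 8x60K mouse array each. Per the file headers, the authors read the images with Feature Extraction 10.7.3.1, and the deposited scanner files hold intensity values per spot, not normalised between arrays. The processing notes name version 9.1 and limma. The authors' series table, also deposited, is on a log2 scale, after background correction and quantile normalisation in limma. It correlated at 0.99985 on the ELA array with normexp values without an offset, its medians were 6.24, 6.20, 6.24 and 6.24, and it was used as an alternative.

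Here, median spot intensities were corrected with normexp (limma 3.58.1, R 4.3.3; offset 50) and quantile-normalised over the 4 arrays, and log2 was taken. Control spots and outlier-flagged spots were then left out, 0 spots were saturated, and 559 of 55681 probes had no usable spot on at least 1 array. Probe names were updated by accession through a RefSeq table (26576 probes matched, used for names only), while the 10 genes kept the names of the files, and 0 further probes took a member's name. A gene was represented by its brightest probe over the 4 arrays. Coordinates of probes are those of the files (mm9). A change was called at an absolute log2 difference of at least 1, a mean log2 of at least 7.5 and a spot well above background in 1 or both arrays. These sizes follow the methods of the study, but its limit on p-values needs replicates and was not used. The offset narrows differences of dim probes, so the same sizes act on another scale than in the deposited table. Mesp1 in AZA minus ELA was 1.84 here and 4.05 in that table. In ELA minus ES 18926 genes were tested here and 16443 with that table. Where a probe was not well above background, a bound was given: the brighter array was set against the higher of the lowest signal well above background on the dimmer array and the dim probe's own value. The rule was tested on simulated data, with changes larger than the size of 1 planted in brighter spots only. That test does not cover dim genes or differences near 1. The number of arrays limits the precision.

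The 10 genes, the related lists and the marker lists were chosen with earlier results of these data known. Named first from the lists were at most 3 genes per list and comparison, those with the largest difference among the called. Further genes of the lists, called or not, were named after their values were seen. For each regulator detected on all arrays the 2 genes nearest in profile were named. Alternatives were other detection rules, normexp without offset, no background correction, scaling to the 75th percentile or to 7 E1A spike-in probes, the deposited table, the mean over probes, the mean pixel of a spot and the 99th percentile of negative controls as the floor of bounds (both added after the data were seen), no filter on dim probes and a threshold of 1.5-fold. A gene of the Nodal and Wnt target list is not reported here and was left out of its counts. An array with knockdown of SmarcA4 was not analysed here.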

Additional observations from a re-analysis of the deposited data

How the results depend on the processing

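Of 40 differences (10 genes in 4 comparisons), 28 kept their sign in all 8 ways of processing, and of 280 alternative values 170 lay within 0.22 of the main value. For the 6 genes with 1 probe the mean over probes equals the main value, so that alternative could not move them. The deposited table lay close to normexp without an offset, so these 2 alternatives are not independent. Spike-in scaling moved the median of all tested genes to -0.57 in ELA minus ES, -0.46 in AZA minus ELA and -0.64 in CHQ minus ELA, so directions are relative to the bulk of transcripts. The count called in ELA minus ES went from 0 to 1 with spike-in scaling and without the filter on dim probes (Evx1 in both), and with the deposited table and the 1.5-fold threshold (Fgf8 in both). In these settings, in that order, 19.5%, 6.82%, 10.8% and 22.8% of all tested genes were called, beside 9.93% in the main one. In AZA minus ELA the member count went from 0 to 2 without the filter (Mesp1, Evx1) and to 1 at 1.5-fold (Eomes). Of all tested genes 16.7% and 46.4% were then called, beside 25.5% in the main setting. In CHQ minus ELA the member count of 1 became 2 with 75th percentile scaling (Tbx6, Fgf8) and 2 with spike-in scaling (Eomes, Fgf8, without Tbx6). It became 3 with the deposited table and at 1.5-fold (Eomes, Tbx6, Fgf8), and 2 without the filter (Mesp1, Tbx6). It was 0 with the mean over probes and with the mean pixel of a spot. Of all tested genes 26.7% were called in the main setting, 32.7% with 75th percentile scaling and 42.2% with spike-in scaling. That share was 29.3% with the deposited table, 48.8% at 1.5-fold and 17.2% without the filter. With the mean over probes it was 24.9%, and with the mean pixel 26.7%. In CHQ minus AZA the member count went from 0 to 2 at 1.5-fold (Tbx6, Fgf8), while the share of all tested genes went from 10.2% to 24.7%. The median difference of the 10 genes in ELA minus ES, 0.24, became 0.59 with 75th percentile scaling and -0.13 with spike-in scaling, and in AZA minus ELA 0.12 became -0.37 with spike-in scaling. In CHQ minus ELA -0.30 became -0.62 without an offset, -0.73 with 75th percentile scaling, -1.14 with spike-in scaling, -0.60 in the deposited table and -0.069 with the mean over probes. The cause of these shifts was not tested. Counts of detected genes stayed between 6 and 10 under the 4 detection rules, and those in ES, AZA and CHQ rose by 1 where a value over the 99th percentile of negative controls counted as detected, as did that in ES with the positive-and-significant mark. No paired analysis was possible because each group has 1 array.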
